A study of Mus musculus with 8 samples.

Results

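The genes described here are 8 genes through which lymphocytes leave lymphoid organs, recirculate and find their place inside them: the sphingosine-1-phosphate receptors S1pr1 and S1pr4, the transcription factors Klf2 and Klf3, the S1PR1 antagonist Cd69, the chemokine receptors Ccr7 and Cxcr5, and the oxysterol receptor Gpr183. They were chosen by name for these roles. All 8 were present among the 38406 gene symbols of the count table, and all 8 were among the 14772 genes that passed the filter on low counts. They were read in regulatory T cells (Tregs, the Foxp3+ CD4+ lymphocytes that hold immune responses in check) of male C57BL/6 mice.

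The 8 libraries formed 4 groups of 2. Aged muscle and aged spleen Tregs came from mice older than 6 months, and young muscle and young spleen Tregs from mice of 2 months. Muscle of the hind limb (tibialis anterior, quadriceps and gastrocnemius) had received 0.9 µg of cardiotoxin per muscle, a component of cobra venom that kills muscle fibres, and Tregs were taken 4 days later. The sample records give the same dose and the same 4 days for the spleen libraries, so the spleen groups are not uninjured controls. No library of uninjured muscle was analysed here, so local injury is shared by the muscle groups and cannot be told apart from the tissue. Each library held RNA of 1500 cells sorted in succession through a pair of sorts, amplified by in vitro transcription and then by PCR. The labels do not say whether the 2 libraries of a group came from separate animals, so every p-value measures only the spread between libraries.

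Lymphocytes leave spleen, lymph node and thymus by following sphingosine-1-phosphate, which is high in blood and lymph and low inside tissue. S1PR1 reads this gradient, KLF2 drives transcription of S1pr1, and CD69 on an activated cell binds S1PR1 and pulls it from the surface. CCR7 brings T cells to the T cell zone, CXCR5 draws follicular cells to the B cell follicle, and GPR183 (EBI2) guides cells along oxysterol gradients to the follicle border. Tissue-resident T cells of many organs carry CD69 and low KLF2, S1PR1 and CCR7.

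In young mice all 8 genes differed between muscle and spleen Tregs, 6 lower and 2 higher in muscle, while edgeR's quasi-likelihood test at an adjusted p of 0.05 called 22.3% of all genes tested in that comparison (11.4% higher and 10.9% lower in muscle). In aged mice 6 of the 8 differed, 3 higher and 3 lower in muscle, against 18.8% of all genes (9.57% higher and 9.27% lower). With age, 4 of the 8 fell in spleen, against 4.24% of all genes called in either direction and 2.17% called lower, and 1 fell in muscle, against 2.02% and 0.88%. The age effect differed between the tissues for Klf2 and S1pr1, against 2.52% of all genes called in either direction, 1.35% higher and 1.17% lower. The members were picked with earlier results of these libraries known, so these counts describe them and are not a test of the group. Without aged spleen replicate 2, 3 members were called between tissues in aged mice. Without that library or young spleen replicate 1, 2 were called for age in spleen, and Klf2 and S1pr1 both missed the threshold for the difference. The single call for age in muscle, that of S1pr4, was lost without any 1 of 7 libraries. The median log2 fold change of the 8 genes was -0.18 for muscle against spleen in aged mice and -1.0 in young mice, beside 0.03 and 0.07 over all genes. It was -0.08 for age in muscle and -0.49 for age in spleen, beside 0.03 and 0.05 over all genes.

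**Figure D1:**
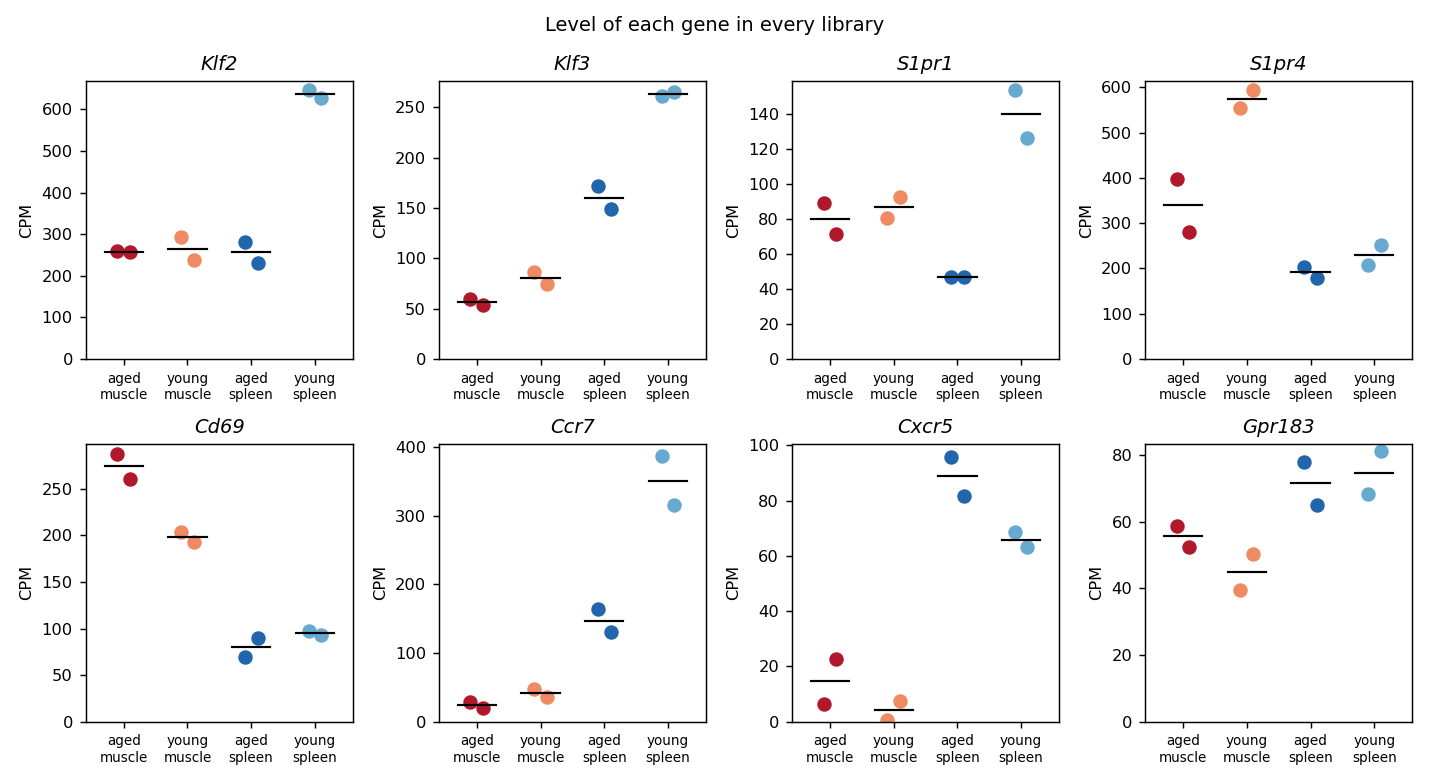
Level of each of the 8 genes in aged muscle, young muscle, aged spleen and young spleen Tregs. Levels are in CPM (a gene's count relative to its library total) on a linear axis. Each point is 1 library, each bar the mean of 2. S1pr4 and Cd69 lay higher in all 4 muscle libraries than in any spleen library, Ccr7, Klf3, Cxcr5 and Gpr183 lay lower, and Klf2 and S1pr1 overlapped.

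Library totals ran from 1969982 to 4008622 counts. A library with no read of a gene could hold up to 3 counts of it by counting error alone, which is 0.736 to 1.50 CPM across libraries. Foxp3 was read in every library, with 33 to 108 counts. Young muscle replicate 1 stood apart in markers of other cells: its summed level of 22 myeloid genes was 1132 CPM, against 264 to 496 CPM in the other libraries, that of 14 muscle and fibroblast genes was 412 CPM, against 16.4 to 110 CPM, and that of 12 dendritic cell genes was 107 CPM, against 17.8 to 69.9 CPM. Among B cell markers, which bear on Cxcr5 and Gpr183, Ms4a1 had 0 to 19 counts per library. In libraries of pooled sorted cells, fewer cells of a type and less RNA per cell cannot be told apart.

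Klf2, the quiescence factor that drives S1pr1, had 260 and 256 CPM in aged muscle, 292 and 238 CPM in young muscle, 281 and 232 CPM in aged spleen, and 647 and 628 CPM in young spleen. CPM values here use library totals scaled by TMM, a method that assumes most genes do not differ between libraries. Young spleen therefore stood alone at more than double the level of the other groups, and the 3 other groups overlapped. Between tissues of young mice the log2 fold change of Klf2 was -1.26 with an SE of 0.16 (edgeR adjusted p = 5.22e-05), lower in muscle; the values after ± below are SEs of log2 fold changes unless another error is named. In aged mice the same comparison gave 0.01 ± 0.16, with a 95% interval of -0.33 to 0.35 (edgeR adjusted p = 0.975).

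With age, Klf2 fell in spleen, at -1.31 ± 0.16 (edgeR adjusted p = 0.000199), and this call held under all 13 alternative analyses (DESeq2, another scaling, no filter on low counts, only the groups compared, a replicate block, and each of the 8 libraries left out). In muscle the age effect was -0.04 ± 0.16, with an interval of -0.38 to 0.30. The age effect in muscle minus that in spleen was 1.27 ± 0.22 for Klf2 (interval 0.79 to 1.75, edgeR adjusted p = 0.00556), which by construction is also the difference between the tissue effects of aged and young mice. Without aged spleen replicate 2 the difference was 1.14 and without young spleen replicate 1 it was 1.25, both short of the threshold.

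Klf2 is at chr8:72319033-72321656 on the plus strand (GENCODE M21, GRCm38). Its promoter is shown because the age effect of Klf2 differed between tissues, and that of S1pr4 because these 2 genes had the highest levels per length in muscle. Each sequence is the 250 bases before the RefSeq start site, from RefSeq on GRCm38.p6, 5′ to 3′ on the gene's strand, at chr8:72318812-72319061 (plus) for Klf2 and chr10:81500138-81500387 (minus) for S1pr4. Capitals mark matches on either strand to CACCC (the KLF box), GGGCGG (the GC box), TGTTTAC (a FOXO site) or the MEF2 motif, none of which overlap.
Klf2: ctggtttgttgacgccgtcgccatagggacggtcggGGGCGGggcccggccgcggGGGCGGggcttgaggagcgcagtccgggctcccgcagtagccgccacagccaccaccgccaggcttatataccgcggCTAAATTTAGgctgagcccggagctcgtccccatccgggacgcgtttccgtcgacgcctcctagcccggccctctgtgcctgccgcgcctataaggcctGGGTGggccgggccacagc
S1pr4: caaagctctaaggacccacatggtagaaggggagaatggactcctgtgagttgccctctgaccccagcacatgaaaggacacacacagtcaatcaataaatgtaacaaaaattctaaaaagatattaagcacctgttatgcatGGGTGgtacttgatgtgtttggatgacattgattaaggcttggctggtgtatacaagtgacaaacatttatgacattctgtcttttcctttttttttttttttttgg

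The Klf2 window was 71.2% G or C and held 2 GC boxes, 1 MEF2 match that reads the same on both strands and 1 KLF box on the minus strand. The S1pr4 window was 38.8% G or C and held 1 KLF box on the minus strand. Among 32851 promoters of the same length, 52.0% held a KLF box, 32.7% a GC box, 3.17% the FOXO motif and 2.92% the MEF2 motif. Of the motifs found in the Klf2 window, MEF2 was the rarest among all promoters. These matches describe letters and not binding. RefSeq promoters were matched for 4 of the 8 genes (Klf2, Klf3, S1pr4 and Gpr183).

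Klf3, a repressor of the same family, had 60.0 and 53.3 CPM in aged muscle and 86.1 and 74.9 CPM in young muscle, against 171 and 149 CPM in aged spleen and 261 and 265 CPM in young spleen. It separated the tissues at both ages, unlike Klf2. Klf3 was lower in muscle by -1.50 ± 0.18 on the log2 scale in aged mice (edgeR adjusted p = 4.66e-05) and -1.71 ± 0.18 in young mice (edgeR adjusted p = 7.23e-06), and both calls held under all 13 alternatives. With age it fell in spleen by -0.71 ± 0.17 (edgeR adjusted p = 0.0241), a call lost without any 1 of the 4 spleen libraries, where the value lay between -0.82 and -0.62. In muscle the age effect of Klf3 was -0.51 ± 0.18 (edgeR adjusted p = 0.190). Its age effect in muscle minus that in spleen was 0.21 ± 0.25, so a difference like that of Klf2 was not detected for Klf3. Klf3 (chr5:64803388-64832901, plus strand) overlaps Gm20033 on the opposite strand and C230096K16Rik on the same strand, and the strand setting of the counting is not given in the sources used here, so reads from shared stretches cannot be assigned with confidence.

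Ratios of counts within a library do not depend on how libraries are scaled. The Klf2 count over the Klf3 count was 4.34 and 4.81 in aged muscle and 3.40 and 3.18 in young muscle, against 1.64 and 1.56 in aged spleen and 2.48 and 2.36 in young spleen. Each group kept its own range, with muscle above spleen at either age.

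Of the FOXO and KLF network upstream of or beside these factors, 22 genes were tested. In muscle 4 were higher and 1 lower in aged mice, and 2 were higher and 3 lower in young mice. Over all genes 18.8% were called for tissue in aged mice and 22.3% in young mice. The count of the list was not tested against these shares. Klf4, a KLF2 relative that restrains proliferation, was higher in muscle by 2.06 ± 0.32 on the log2 scale in aged mice (edgeR adjusted p = 0.00159) and by 1.60 ± 0.34 in young mice (edgeR adjusted p = 0.00715), the second call being lost without either young spleen library. Foxo1, the factor that drives Klf2 and Ccr7 in T cells, was lower in muscle of aged mice by -0.65 ± 0.16 (edgeR adjusted p = 0.0104), a call lost without either aged spleen library or without aged muscle replicate 2, and its value in young mice was -0.37 ± 0.16 (edgeR adjusted p = 0.0984). Foxo3, a relative of Foxo1, was lower in muscle of young mice by -1.30 ± 0.25 (edgeR adjusted p = 0.00163). Mef2c, a factor of the family that binds the MEF2 motif, was higher in muscle of young mice by 3.40 ± 0.51 (edgeR adjusted p = 0.000436), with 0.59 ± 0.47 in aged mice. Mef2c is also expressed by B cells, myeloid cells and muscle. Without young muscle replicate 1, the library with the high myeloid and muscle sums, its value in young mice was 3.55, and the call held under all 13 alternatives. Young muscle replicate 2, the library then left, had a myeloid sum of 320 CPM and a muscle and fibroblast sum of 58.9 CPM. The part of other cells in the Mef2c values was not tested.

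S1pr1, the receptor that carries T cells out along the lipid gradient, had 89.0 and 71.5 CPM in aged muscle and 80.9 and 92.9 CPM in young muscle, against 46.8 and 47.2 CPM in aged spleen and 154 and 126 CPM in young spleen. The muscle libraries of both ages thus lay between the spleen groups, above aged spleen and below young spleen. S1pr1 was higher in muscle than in spleen of aged mice by 0.77 ± 0.21 on the log2 scale (edgeR adjusted p = 0.0175) and lower in muscle of young mice by -0.69 ± 0.20 (edgeR adjusted p = 0.0235). It is the one gene of the 8 whose called tissue effects had opposite signs at the 2 ages. Both calls were near the threshold. The call in aged mice was lost without aged spleen replicate 1 (0.77) or 2 (0.78) or aged muscle replicate 1 (0.63), and that in young mice without young spleen replicate 1 (-0.54) or 2 (-0.82) or young muscle replicate 1 (-0.59).

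S1pr1 fell with age in spleen by -1.57 ± 0.20 (edgeR adjusted p = 0.000326), which held under all 13 alternatives, and gave -0.11 ± 0.20 in muscle (interval -0.54 to 0.32, edgeR adjusted p = 0.838). The age effect in muscle minus that in spleen was 1.46 ± 0.29 (interval 0.85 to 2.07, edgeR adjusted p = 0.0114). That call was lost without aged spleen replicate 1 (1.46) or 2 (1.47) and without young spleen replicate 1 (1.31), while the value stayed above 1 in each. S1pr1 and Klf2 ranked 64 and 44 by p among the 14772 genes for age in spleen. Endothelium also expresses S1pr1. The summed level of 12 endothelial genes was 205 and 184 CPM in aged muscle and 181 and 242 CPM in young muscle, against 156 and 193 CPM in aged spleen and 318 and 345 CPM in young spleen. Most of it was Pecam1, an adhesion molecule that leukocytes also carry, with 316 and 344 CPM in young spleen. Of the defining genes, Egfl7 was at 0 in every library and Cdh5 had 0 to 13 counts. Among the 4 endothelial genes tested, 1 was higher in muscle of aged mice, and 2 (Tek and Emcn) were higher and 1 (Pecam1, -0.87) lower in muscle of young mice. Their part in the S1pr1 values was not tested. The S1pr1 gene is at chr3:115710433-115715072 on the minus strand.

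**Figure D2:**
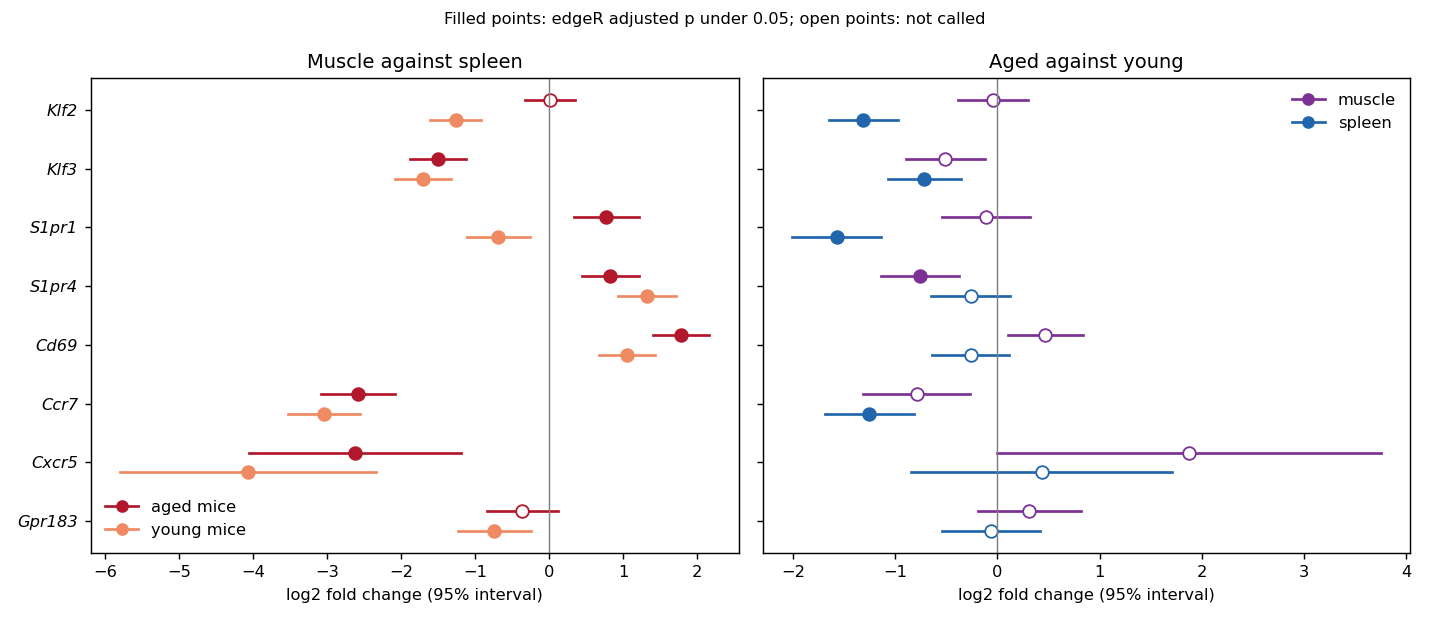
Log2 fold change of each gene with its 95% interval, for muscle against spleen at each age and for aged against young in each tissue; filled symbols passed an adjusted p of 0.05. Klf2 and S1pr1 show age effects of -1.31 and -1.57 in spleen beside -0.04 and -0.11 in muscle.

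S1pr4, a lymphocyte receptor for the same lipid with a less settled part in trafficking, had 398 and 281 CPM in aged muscle and 554 and 593 CPM in young muscle, against 204 and 179 CPM in aged spleen and 208 and 251 CPM in young spleen. It was the member of the receptor pair that rose in muscle at both ages. S1pr4 was higher in muscle by 1.32 ± 0.18 on the log2 scale in young mice (edgeR adjusted p = 0.000113, held under all 13 alternatives) and by 0.83 ± 0.18 in aged mice (edgeR adjusted p = 0.00571, lost without aged spleen replicate 2, where it was 0.74). With age S1pr4 fell in muscle by -0.76 ± 0.18 (edgeR adjusted p = 0.0413), the one age call in muscle among the 8 genes. This call was lost when only the muscle groups were fitted (-0.76), without any 1 of the 4 spleen libraries, without young muscle replicate 1 (-0.80) or 2 (-0.71), and without aged muscle replicate 2 (-0.53). In spleen the age effect of S1pr4 was -0.26 ± 0.18, and the age effect in muscle minus that in spleen was -0.50 ± 0.25 (interval -1.04 to 0.05, edgeR adjusted p = 0.441). S1pr4 is at chr10:81497747-81500132 on the minus strand.

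The balance of the receptors differed by group. The S1pr4 count over the S1pr1 count was 4.47 and 3.93 in aged muscle and 6.86 and 6.39 in young muscle, against 4.35 and 3.81 in aged spleen and 1.35 and 1.99 in young spleen. Aged muscle and aged spleen overlapped in this ratio, while young muscle and young spleen held the highest and the lowest values.

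Of sphingosine-1-phosphate synthesis, breakdown, transport and reception, 19 genes other than S1pr1 and S1pr4 were tested. In muscle 1 was higher in aged mice, and 1 was higher and 1 lower in young mice. Over all genes 18.8% were called for tissue in aged mice and 22.3% in young mice. Cers6, a ceramide synthase, was higher in muscle of aged mice by 1.91 ± 0.36 on the log2 scale (edgeR adjusted p = 0.0021) and fell with age in spleen by -1.68 ± 0.36 (edgeR adjusted p = 0.0144), the age call being lost without either aged spleen library and without young spleen replicate 1. Sgpp1, a phosphatase that removes the phosphate of sphingosine-1-phosphate, was lower in muscle of young mice by -1.62 ± 0.27 (edgeR adjusted p = 0.000673). S1pr3, a receptor of the same family better known from stromal and vascular cells, was the gene higher in young muscle, at 3.59 ± 1.23 (edgeR adjusted p = 0.0489), on 29 and 28 counts in young muscle and 0 and 5 counts in young spleen, and the call was lost under 7 of 13 alternatives. S1pr2, the receptor that holds cells back through the G protein alpha-13, gave -1.28 ± 0.50 in aged mice (edgeR adjusted p = 0.0864) and 0.30 ± 0.49 in young mice.

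Cd69, the early activation and residency receptor that takes S1PR1 off the surface, had 288 and 261 CPM in aged muscle and 203 and 193 CPM in young muscle, against 69.4 and 90.2 CPM in aged spleen and 97.7 and 93.4 CPM in young spleen. Every muscle library was above every spleen library. Such separation of the 4 muscle from the 4 spleen libraries was found upward in 12.4% of all genes, Cd69 and S1pr4 among them, and downward in 14.6%, among them Ccr7, Klf3, Cxcr5 and Gpr183. With 2 libraries against 2, groups kept apart in 65.4% of all genes for tissue in aged mice, 62.1% for tissue in young mice, 41.5% for age in muscle and 52.7% for age in spleen. Cd69 was higher in muscle by 1.78 ± 0.18 on the log2 scale in aged mice (edgeR adjusted p = 9.5e-06) and by 1.05 ± 0.18 in young mice (edgeR adjusted p = 0.000651), and both calls held under all 13 alternatives. Its age effect was 0.47 ± 0.17 in muscle (interval 0.11 to 0.83, edgeR adjusted p = 0.194) and -0.26 ± 0.18 in spleen (interval -0.64 to 0.12, edgeR adjusted p = 0.505). The difference of these, 0.73 ± 0.25, had an edgeR adjusted p of 0.166. Cd69 is at chr6:129267325-129275436 on the minus strand.

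The Cd69 count over the S1pr1 count was 3.23 and 3.65 in aged muscle and 2.51 and 2.08 in young muscle, against 1.48 and 1.91 in aged spleen and 0.635 and 0.739 in young spleen. The groups did not overlap and stood in that order. Per kilobase of exon, which the count ratio leaves out, Cd69 lay above S1pr1 in aged muscle (40.1 to 44.2 against 23.5 to 29.2 CPM per kilobase) and overlapped it in young muscle (29.6 to 31.2 against 26.5 to 30.5). In aged spleen Cd69 lay below S1pr1 (10.7 to 13.9 against 15.4 to 15.5 CPM per kilobase), as it did in young spleen (14.3 to 15.0 against 41.5 to 50.5). These places depend on the length used, that of all annotated exons joined. It was 6509 bases for Cd69, with 3 annotated starts, and 3046 bases for S1pr1, with 1. With a shorter length for Cd69 its values per kilobase would be higher.

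**Figure D3:**
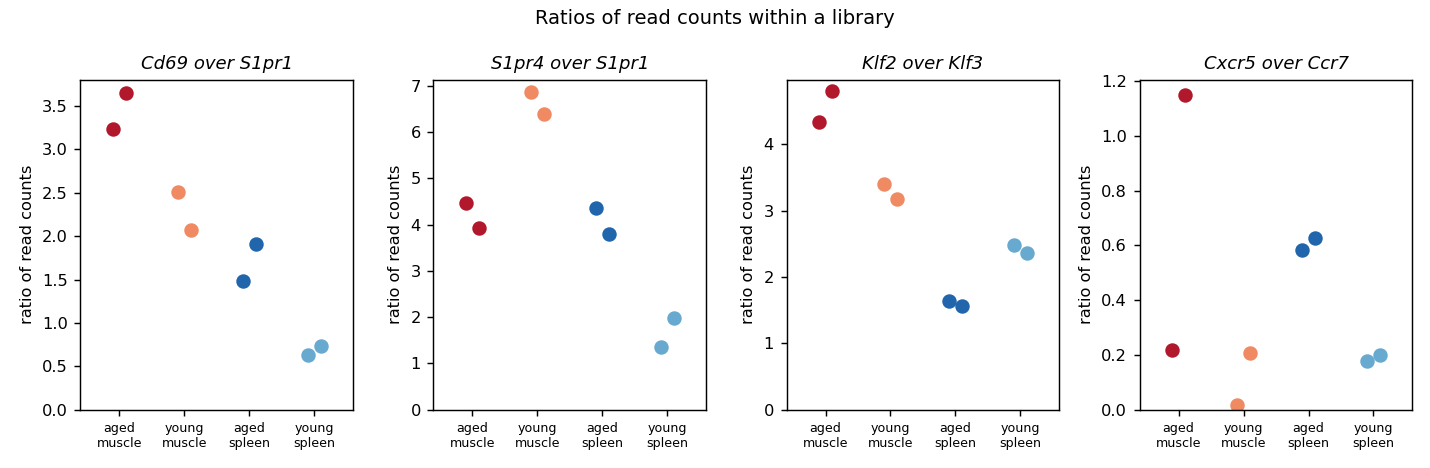
Ratios of counts within each library for Cd69 over S1pr1, S1pr4 over S1pr1, Klf2 over Klf3 and Cxcr5 over Ccr7, by group. The axis is linear and each point is 1 library. Cd69 over S1pr1 lay between 2.08 and 3.65 in muscle and between 0.635 and 1.91 in spleen.

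Cd69 is also an immediate early gene, one that dissociation or recent signalling can raise within a short time. The list used for such genes also holds the heat shock chaperones Hspa1a and Hspa1b, and leaves out Cd69. Of its 23 tested genes, 16 were higher and 4 lower in muscle of aged mice. Their median was 0.90 beside 0.03 over all genes. In muscle of young mice 15 were higher and 4 lower, with a median of 0.96 beside 0.07. The shares of all genes called higher and lower were 9.57% and 9.27% in aged mice, and 11.4% and 10.9% in young mice. Fosb, an AP-1 subunit, was higher in muscle by 2.93 ± 0.18 in aged mice (edgeR adjusted p = 7.89e-08) and by 3.71 ± 0.19 in young mice (edgeR adjusted p = 6.8e-09). Nr4a1, which marks antigen receptor signalling, was higher by 2.55 ± 0.16 in aged mice (edgeR adjusted p = 8.05e-08) and by 2.31 ± 0.16 in young mice (edgeR adjusted p = 1.05e-07). Other listed genes lay lower in muscle. Hspa1a, a heat shock chaperone, was lower by -5.07 ± 0.22 in aged mice (edgeR adjusted p = 6.38e-09) and by -5.46 ± 0.24 in young mice (edgeR adjusted p = 3.21e-09), and its near-identical copy Hspa1b gave -5.03 and -5.13, with reads that counting may split between them. Jun, another AP-1 subunit, was lower by -1.37 ± 0.16 in aged mice (edgeR adjusted p = 3.53e-05) and by -1.76 ± 0.16 in young mice (edgeR adjusted p = 2.01e-06). These calls held under all 13 alternatives, so the list did not move in 1 direction. The summed level of the 24 listed genes was 15854 and 13437 CPM in aged muscle and 16691 and 15992 CPM in young muscle, against 8134 and 8565 CPM in aged spleen and 8118 and 7814 CPM in young spleen. Their part in the Cd69 difference was not tested.

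Ccr7, the receptor for the T cell zone chemokines CCL19 and CCL21 that also guides exit from tissue into lymph, had 29.1 and 19.9 CPM in aged muscle and 48.3 and 36.5 CPM in young muscle, against 164 and 130 CPM in aged spleen and 386 and 315 CPM in young spleen. The 4 groups did not overlap, and aged libraries were below young ones in each tissue. Ccr7 was lower in muscle by -2.58 ± 0.23 on the log2 scale in aged mice (edgeR adjusted p = 3.86e-06) and by -3.04 ± 0.23 in young mice (edgeR adjusted p = 2.94e-07), both held under all 13 alternatives. With age it fell in spleen by -1.25 ± 0.20 (edgeR adjusted p = 0.00228), a call lost without aged spleen replicate 2 and without young spleen replicate 1, at -1.10 in each case. In muscle the age effect of Ccr7 was -0.79 ± 0.25 (interval -1.32 to -0.26, edgeR adjusted p = 0.129). It passed the threshold with no filter on low counts, with the replicate number as a block (-0.79), and without young muscle replicate 2 (-0.97). The age effect in muscle minus that in spleen was 0.46 (edgeR adjusted p = 0.616). Ccr7 is at chr11:99144196-99155077 on the minus strand.

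Cxcr5, the follicle-homing receptor of follicular regulatory T cells and of B cells, had 6.33 and 22.8 CPM in aged muscle and 0.805 and 7.49 CPM in young muscle, against 95.9 and 81.8 CPM in aged spleen and 68.7 and 63.2 CPM in young spleen. The young muscle values rest on 2 and 15 counts, and 2 counts lie under the limit of 3. Cxcr5 was lower in muscle by -4.07 ± 0.75 on the log2 scale in young mice (edgeR adjusted p = 0.00654, held under all 13 alternatives) and by -2.62 ± 0.62 in aged mice (edgeR adjusted p = 0.0227). The call in aged mice was lost with DESeq2 (-2.55) and without aged spleen replicate 1 (-2.50), aged spleen replicate 2 (-2.73) or young spleen replicate 2 (-2.62), and its size hung on the muscle library kept, at -1.94 without aged muscle replicate 1 and -3.80 without replicate 2. In young mice the value ran from -6.28 to -3.13 over the alternatives. The age effect of Cxcr5 was 1.87 ± 0.82 in muscle (edgeR adjusted p = 0.327) and 0.43 ± 0.55 in spleen (edgeR adjusted p = 0.778). In muscle it was 4.08 and passed the threshold without young muscle replicate 2, where young muscle was left with the library of 2 counts, and it passed at 1.85 with no filter on low counts. Cxcr5 (chr9:44511787-44561877, minus strand) overlaps Bcl9l on the opposite strand, whose reads may not be told apart there; Bcl9l gave 0.22 in aged mice and -0.85 in young mice for muscle against spleen.

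The Cxcr5 count over the Ccr7 count, follicle against T cell zone receptor, was 0.218 and 1.15 in aged muscle and 0.0167 and 0.205 in young muscle, against 0.585 and 0.628 in aged spleen and 0.178 and 0.200 in young spleen. In spleen the aged libraries were about 3 times the young ones in this ratio, with Ccr7 lower and Cxcr5 not called. In muscle the replicates spread too widely to set the groups in order.

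Other genes of the follicular regulatory T cell program lay mostly lower in muscle too. Of 12 tested genes other than Cxcr5, 10 were lower and 1 higher in muscle of aged mice, with a median of -1.38, and 8 were lower and 2 higher in muscle of young mice, with a median of -0.87. Beside these, 9.27% of all genes were called lower and 9.57% higher in aged mice, with a median of 0.03. In young mice the shares were 10.9% and 11.4%, with a median of 0.07. The list was not tested against these shares. Bcl6, the factor that specifies follicular T cells, was lower by -2.30 ± 0.22 on the log2 scale in aged mice (edgeR adjusted p = 8.29e-06) and by -2.0 ± 0.22 in young mice (edgeR adjusted p = 1.56e-05). Btla, an inhibitory receptor, was lower in muscle of young mice by -2.78 ± 0.30 (edgeR adjusted p = 9.79e-06). Icos, a costimulatory receptor that other activated Tregs also carry, was higher by 1.29 ± 0.15 in aged mice (edgeR adjusted p = 3.76e-05) and by 2.40 ± 0.16 in young mice (edgeR adjusted p = 8.02e-08). Maf was also higher in young mice, by 0.58 ± 0.16 (edgeR adjusted p = 0.0186), a call lost under 3 of 13 alternatives. The summed level of the 14 listed genes did not follow the counts. It was 3124 and 2584 CPM in aged muscle, against 3091 and 3227 CPM in aged spleen. Young muscle had 3505 and 3624 CPM, above the 2086 and 2205 CPM of young spleen.

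The number of these genes called lower moved with single libraries. In aged mice it was 5 without aged spleen replicate 1 or 2 and 6 without aged muscle replicate 2, and in young mice 4 without young spleen replicate 1. With age in spleen 5 of the 12 were higher, but at most 1 without any 1 of the 4 spleen libraries. The share of all genes called higher with age in spleen was 2.08%. The summed level of 13 B cell markers, mostly Ighm and Cd74, was 677 and 614 CPM in aged muscle and 453 and 490 CPM in young muscle, against 1026 and 1071 CPM in aged spleen and 594 and 585 CPM in young spleen. Its part in the values of the follicular list was not tested.

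**Figure D4:**
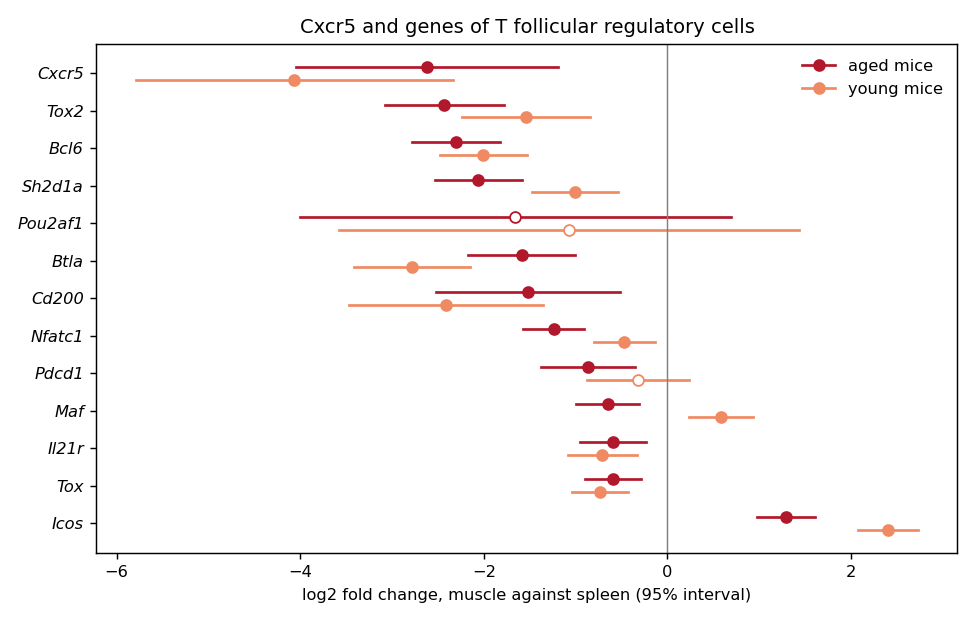
Log2 fold change, muscle against spleen, of Cxcr5 and the genes of the follicular regulatory T cell list in aged and young mice, with 95% intervals; filled symbols passed an adjusted p of 0.05. Most genes lie below 0, Bcl6 at -2.30 in aged and -2.0 in young mice, and Icos lies above 0 at 1.29 and 2.40.

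Gpr183, the receptor for the oxysterol 7-alpha,25-dihydroxycholesterol, had 58.8 and 52.4 CPM in aged muscle and 39.4 and 50.5 CPM in young muscle, against 78.0 and 65.1 CPM in aged spleen and 68.2 and 81.4 CPM in young spleen. It spanned the narrowest range of the 8 genes. Gpr183 was lower in muscle of young mice by -0.74 ± 0.23 on the log2 scale (edgeR adjusted p = 0.0339), and gave -0.36 ± 0.23 in aged mice (interval -0.85 to 0.12, edgeR adjusted p = 0.267). The call in young mice was lost with DESeq2, with library-size scaling, with only the young groups fitted, and without any 1 of the 4 spleen libraries or young muscle replicate 1, at values of -0.86 to -0.57. The age effect of Gpr183 was 0.31 ± 0.23 in muscle (edgeR adjusted p = 0.559) and -0.06 ± 0.22 in spleen (edgeR adjusted p = 0.933).

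Gpr183 (chr14:121952551-121965195, minus strand) lies opposite Ubac2, a gene of the endoplasmic reticulum. Ubac2 was itself lower in muscle, by -0.79 in aged mice (edgeR adjusted p = 0.00355) and by -0.54 in young mice (edgeR adjusted p = 0.0228), and how far its reads enter the Gpr183 count was not tested. Of the 4 tested genes of oxysterol synthesis and chemokine ligands, Cyp7b1, which makes the ligand of GPR183, was higher in muscle of aged mice by 2.63 ± 0.85 (edgeR adjusted p = 0.0424), a call lost without any 1 of the 4 spleen libraries or either aged muscle library.

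Of 15 tested adhesion and homing genes, 5 were higher and 3 lower in muscle of aged mice, and 6 were higher and 4 lower in muscle of young mice. Itga4, the integrin chain used to bind VCAM1 and MAdCAM1, was lower in muscle of young mice by -2.40 ± 0.23 (edgeR adjusted p = 5.67e-06). It was also lower in muscle of aged mice, by -0.74 ± 0.21 (edgeR adjusted p = 0.0249), a call lost under 5 of 13 alternatives. Itga4 was higher with age in muscle by 1.99 ± 0.23 (edgeR adjusted p = 0.000295), a call lost when only the muscle groups were fitted. Of 35 tested genes that carry the signal of these receptors, 4 were higher and 6 lower in muscle of aged mice. In muscle of young mice 3 were higher and 6 lower. Beside the counts of both lists, 18.8% of all genes were called for tissue in aged mice and 22.3% in young mice. Gna13, the G protein through which S1PR2 acts, was higher in muscle by 1.04 ± 0.17 in aged mice (edgeR adjusted p = 0.000788) and by 0.92 ± 0.17 in young mice (edgeR adjusted p = 0.00152). Arhgef1, the exchange factor that G protein alpha-13 drives, was lower by -0.65 ± 0.15 in aged mice (edgeR adjusted p = 0.00794) and by -0.70 ± 0.15 in young mice (edgeR adjusted p = 0.00391). The Arhgef1 call in aged mice was lost without either aged spleen library, and that in young mice without young spleen replicate 2.

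Levels of different genes were compared per length, as CPM per kilobase of all annotated exons. That length joins the exons of every annotated transcript, 11243 bases for Klf3 with 9 starts and 6509 bases for Cd69 with 3. The low places of these genes below therefore depend on the length chosen. Whether reads of amplified RNA scale with length was not tested. In aged muscle S1pr4 averaged 142 and Klf2 140 CPM per kilobase, and their libraries overlapped. In young muscle S1pr4 averaged 241 and Klf2 144 CPM per kilobase, with no overlap between them. In aged spleen Klf2 led at 139, followed by S1pr4 at 80.3 and Ccr7 at 74.3 CPM per kilobase, of which S1pr4 and Ccr7 overlapped. In young spleen Klf2 led at 345, followed by Ccr7 at 177 and S1pr4 at 96.2 CPM per kilobase, and these did not overlap. Cxcr5 had the lowest mean of the 8 in aged muscle (4.38), where it overlapped Klf3, and in young muscle (1.25), where it overlapped none. Cd69 had the lowest mean in aged spleen (12.3), where it overlapped Klf3, and in young spleen (14.7 CPM per kilobase), where it overlapped none.

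Likeness of pattern was measured as the root mean square difference of log2 CPM over the 8 libraries after each gene was centred, where 0 is an identical pattern. Among the 28 pairs of members, S1pr1 and Klf2 were closest at 0.38, S1pr4 and Cd69 were at 0.51, and Cd69 and Cxcr5 were farthest apart at 2.64. For scale, the median difference to other genes of sufficient level was 0.60 for Klf2, 0.66 for S1pr1, 0.77 for S1pr4 and 0.89 for Cd69. A gene flat over all libraries would lie at 0.57 from Klf2, 0.56 from S1pr1, 0.62 from S1pr4 and 0.74 from Cd69. Among 7765 other genes of sufficient level, Itga6 was nearest to Klf2 at 0.15, Rasa3 nearest to S1pr1 at 0.16 with Bcl2l11 and Txk at 0.22, and Hopx nearest to Cd69 at 0.13. Lrig1 was nearest to Ccr7 at 0.33, followed by Actn1 at 0.34 and Pik3ip1 at 0.39. Slc16a6 was nearest to S1pr4 at 0.16, Rplp2 to Klf3 at 0.18, Pdpk1 to Gpr183 at 0.07 and Tnfsf8 to Cxcr5 at 0.43. The measure favours genes of narrow range, as for Gpr183, and says nothing of shared control.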

How the data were processed

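The values are raw gene-level read counts, as the authors deposited them, in 1 column per library. TopHat2, TopHat, HTSeq, Picard, SAMtools 0.1.19 and the build mm10 are named, per the submitters' processing notes. Annotation and strandedness were not given in the sources used here. Counts are of amplified reads without stated molecular identifiers. Genes were kept by filterByExpr, libraries scaled by TMM, and all 8 libraries were fitted together by robust quasi-likelihood with 4 group coefficients (edgeR 4.0.16, limma 3.58.1, R 4.3.3). The common biological coefficient of variation was 0.288 on 4 residual degrees of freedom. Tests were two-sided, with Benjamini-Hochberg adjustment over the 14772 genes at 0.05. SEs were the log2 fold change divided by the root of F. Alternatives were DESeq2 1.42.0, library-size scaling, no filter, only the groups compared, a replicate block, and leaving out each library. The pipeline was tested on simulated data.

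The members, gene lists and naming rules were chosen with earlier results of these data known. Of each list the genes past the threshold with the smallest p in each direction were eligible for naming, and genes like a member were the 3 of smallest difference with a mean log2 CPM of at least 4 (prior count 2). The genes overlapping a member were added after the values were seen. Values of uncalled genes are given beside a call in another comparison. S1pr2 and Arhgef1 are named for their roles.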

Additional observations from a re-analysis of the deposited data

Results flagged for a closer look

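Klf2 and S1pr1 stood out because their age effects differed between the tissues by a test of the difference itself. For Klf2 the age effect in muscle minus that in spleen was 1.27 on the log2 scale (edgeR adjusted p = 0.00556), from -0.04 in muscle and -1.31 in spleen. For S1pr1 it was 1.46 (edgeR adjusted p = 0.0114), from -0.11 in muscle and -1.57 in spleen. In both genes the aged spleen libraries lay below the young spleen libraries, and the aged and young muscle libraries overlapped. Each difference rests on 2 libraries a group, and no group was large enough to look for a library far from the others.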

How the results depend on the processing

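Of 512 values of single members under the alternatives, 460 kept their direction and their side of the threshold, 38 lost the call and 5 gained it. The other 9 changed sign with no call on either side, all near 0: Klf2 for tissue in aged mice (lowest -0.12) and for age in muscle (highest 0.12), S1pr1 for age in muscle (0.04) and Gpr183 for age in spleen (highest 0.10). No called member changed sign. For age in muscle the number of genes called was 298, and became 497 with DESeq2, 748 with no filter and 50 with only the 2 groups fitted; members called were 1 in the main analysis, 3 with no filter and 0 with only the 2 groups (edgeR; 2 at an unadjusted p under 0.05, and 1 called by DESeq2 on all groups). For age in spleen 627 genes were called, against 1039 with no filter and 1930 with only the 2 groups, and for the difference of age effects 372, against 670 with no filter. The filter alternative tests more genes.

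The labels state no pairing of libraries by replicate number. Deviations of same-numbered libraries correlated between -0.07 and 0.26, in 4 of 6 pairs of groups at or under 0.1. With 2 libraries a group, such correlations cannot tell whether same-numbered libraries shared animals. With a replicate block 479 genes and 2 members were called for age in muscle, and no other count moved by over 1.5 times.

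Leaving out 1 library, the genes called ranged from 870 to 3922 for tissue in aged mice (members 3 to 6), 1444 to 3545 for tissue in young mice (6 to 8), 147 to 978 for age in muscle (0 to 2), 141 to 1046 for age in spleen (2 to 4), and 137 to 646 for the difference (0 to 2). The lowest member count for tissue in aged mice came without aged spleen replicate 2. For age in spleen and for the difference it came without that library or without young spleen replicate 1. For the difference DESeq2 on all libraries called 2 members. A left-out library leaves a group with 1, assumed to vary like the others. With library-size scaling the median over all genes for age in spleen was 0.21, against 0.05 with TMM, and 489 genes were higher and 236 lower, against 307 and 320; for the difference 208 were higher and 247 lower, against 199 and 173; the share higher for age in muscle was 66.4%, against 56.4%. Few counts limit Cxcr5 in muscle.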
